A study of Mus musculus with 2 samples.

Results

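The genes of antigen presentation were described in the urinary bladder of newborn mice. The set held every protein-coding gene of GENCODE M21 whose symbol starts with H2-, together with B2m, Tap1, Tap2, Tapbp, Psmb8, Psmb9, Psmb10, Cd74, Ciita, Nlrc5 and Erap1. That rule gave 45 genes, 34 with an H2- symbol and 11 others, of the 43346 mouse genes measured. Of the 45 genes, 39 lie on chromosome 17, Psmb10 and Nlrc5 on chromosome 8, and B2m, Erap1, Ciita and Cd74 on chromosomes 2, 13, 16 and 18. Total RNA of whole bladder from 2 littermates of the B6NCrl strain, both pups of 1 pregnant female and taken on the day of birth, was sequenced with 1 library per pup. The labels give no treatment and both pups form 1 group, so the design holds no contrast; pup 2 and pup 1 are the 2 biological replicates of the labels, and the sex was not collected. A difference between them is a difference between 2 animals, with no replicate check.

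Class I molecules pair a heavy chain with beta-2-microglobulin, the product of B2m, and show peptides from inside the cell to CD8 T cells and natural killer cells. The peptides are cut by the proteasome, in which the interferon-inducible subunits Psmb8, Psmb9 and Psmb10 can take the places of Psmb5, Psmb6 and Psmb7. They are carried into the endoplasmic reticulum by the transporter Tap1-Tap2, trimmed by Erap1 and loaded with the help of tapasin, the product of Tapbp. Class II molecules are alpha-beta pairs that show peptides from endosomes to CD4 T cells, guided by the invariant chain Cd74 and edited by H2-DM and H2-O. Class II is known from macrophages, dendritic cells and B cells, whereas class I is made by most nucleated cells. Nlrc5 is the coactivator of class I genes and Ciita that of class II genes, and both act through the X and Y boxes of their promoters.

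Promoter windows of 6 of the genes are shown because they carry, or lack, the X and Y box letters that class I and class II genes are known for. The sequences come from RefSeq on GRCm38.p6 and run 5′ to 3′ on the gene's strand, from 250 bases before the start to 50 after it. Capitals mark matches to TGANG followed by ATTGG with 10 to 30 bases between (X2 and Y box letters), to GGGGATTCC (a kappa B type site), to GAAA, any 2 bases and GAAA again (an interferon response type site) and to TTTCACTT, the last of which was added after the windows had been read. The windows are H2-D1 at chr17:35262844-35263143 on the plus strand, H2-K1 at chr17:34000298-34000597 on the minus strand, H2-T23 at chr17:36032652-36032951 on the minus strand, B2m at chr2:122147437-122147736 on the plus strand, H2-Aa at chr17:34287774-34288073 on the minus strand and H2-Eb2 at chr17:34325425-34325724 on the plus strand.
H2-D1: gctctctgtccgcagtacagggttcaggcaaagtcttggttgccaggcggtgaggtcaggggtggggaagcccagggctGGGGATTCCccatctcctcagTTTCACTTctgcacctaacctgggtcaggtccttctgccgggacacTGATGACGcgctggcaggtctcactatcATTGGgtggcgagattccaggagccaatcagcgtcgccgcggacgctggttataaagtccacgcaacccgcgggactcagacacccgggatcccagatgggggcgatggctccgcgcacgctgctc
H2-K1: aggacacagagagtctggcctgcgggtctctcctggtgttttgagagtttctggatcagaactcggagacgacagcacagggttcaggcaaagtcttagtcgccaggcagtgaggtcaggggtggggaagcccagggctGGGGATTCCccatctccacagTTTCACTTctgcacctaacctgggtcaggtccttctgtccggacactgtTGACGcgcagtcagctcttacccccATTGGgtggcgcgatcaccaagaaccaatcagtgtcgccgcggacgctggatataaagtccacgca
H2-T23: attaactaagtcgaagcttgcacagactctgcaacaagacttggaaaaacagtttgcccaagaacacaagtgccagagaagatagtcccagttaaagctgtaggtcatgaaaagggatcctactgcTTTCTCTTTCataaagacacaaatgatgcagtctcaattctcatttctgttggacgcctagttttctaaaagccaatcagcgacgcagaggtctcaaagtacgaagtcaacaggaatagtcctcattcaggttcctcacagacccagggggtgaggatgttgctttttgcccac
B2m: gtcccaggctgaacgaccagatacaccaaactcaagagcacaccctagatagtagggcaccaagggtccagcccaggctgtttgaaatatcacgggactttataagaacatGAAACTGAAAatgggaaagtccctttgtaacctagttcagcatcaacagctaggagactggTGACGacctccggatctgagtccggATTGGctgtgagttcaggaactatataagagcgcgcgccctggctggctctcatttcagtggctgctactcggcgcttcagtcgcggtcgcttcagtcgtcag
H2-Aa: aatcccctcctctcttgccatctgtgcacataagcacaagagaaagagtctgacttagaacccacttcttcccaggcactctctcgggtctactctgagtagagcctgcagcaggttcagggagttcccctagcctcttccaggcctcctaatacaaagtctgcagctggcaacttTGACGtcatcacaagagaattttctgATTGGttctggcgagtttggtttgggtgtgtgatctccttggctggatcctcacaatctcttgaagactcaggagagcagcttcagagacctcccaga
H2-Eb2: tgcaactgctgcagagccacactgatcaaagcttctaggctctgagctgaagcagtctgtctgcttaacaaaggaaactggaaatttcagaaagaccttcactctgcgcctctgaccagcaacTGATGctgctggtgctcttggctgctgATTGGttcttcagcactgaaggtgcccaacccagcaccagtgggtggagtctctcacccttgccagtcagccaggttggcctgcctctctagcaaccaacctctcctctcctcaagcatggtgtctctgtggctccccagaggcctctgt

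H2-D1 and H2-K1 shared an unbroken run of 47 bases in these windows, which holds the GGGGATTCC match. In H2-D1 and in H2-K1 the bases TGACG stood 20 bases before ATTGG, and the same spacing was found in B2m. In H2-Aa the spacing was 21 bases and in H2-Eb2 22 bases. A promoter window was matched for 38 of the 45 genes. The TGANG and ATTGG pair was present on the gene's own strand in 13 of these 38, with 17 to 23 bases between, against 2.58% of all 32851 promoter windows. Those 13 were B2m, H2-D1, H2-K1, H2-M3, H2-Q4, H2-Q6, H2-Q7, H2-Aa, H2-Eb1, H2-Eb2, H2-DMb1, H2-DMb2 and H2-Ob. Another 5, H2-M10.1 to H2-M10.5, held it on the opposite strand alone, each with 12 bases between. With both strands counted, and a gene counted if any of its windows held the match, 18 of 38 genes (47.4%) held the pair, against 4.68% of all windows. GGGGATTCC was found in H2-D1, H2-K1, H2-Q6 and H2-Q7 and in 0.25% of all windows. The interferon response type letters were found in B2m, Erap1, H2-T22 and H2-T23 and in 3.44% of all windows. TTTCACTT was found in 10 of the 38 genes and in 1.6% of all windows, and in Erap1 and H2-T22 it overlaps that match on the other strand. ATTGG by itself was in 32 of 38 genes against 37.41% of all windows, and TGANG by itself in 37 of 38 genes against 89.41% of all windows. Of the 13 genes with the pair on their own strand 8 reached 1 TPM (a length-scaled share of the library) in both pups. Of the other 25 genes with a window 11 did. Both groups mix class I, class II and other genes, and a link between the letters and the levels was not tested. H2-Eb2 holds the pair and had 0 counts in both pups, while H2-T23, with no match to the pair in its window, was among the higher class I genes.

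Depth was 32564256 expected counts over mouse genes in pup 2 and 43653536 in pup 1. The antigen presentation genes took 0.116% of the counts in pup 2 and 0.0934% in pup 1, and their TPM summed to 1190.0 in pup 2 and 1058.8 in pup 1. The tissue label was met by its markers: the uroplakin Upk3a stood at 2029 TPM in pup 2 and 2051 TPM in pup 1, and the smooth muscle actin Actg2 at 25651 TPM in pup 2 and 27630 TPM in pup 1. Of the 45 genes, 23 (51.1%) reached 1 TPM in both pups, against 58.5% of all 21474 protein-coding genes. Among the 34 H2- symbols the share was 14 of 34 (41.2%). Of the other 22 genes, 10 had counts in at least 1 pup and 12 had 0 counts in both.

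The class I heavy chains were led by the classical pair that presents peptides to CD8 T cells. H2-D1 stood at 298.85 TPM in pup 2 and 221.75 TPM in pup 1, a mean of 260.3 ± 54.5 TPM (SD, n = 2). H2-K1 stood at 86.04 TPM in pup 2 and 68.89 TPM in pup 1, a mean of 77.5 ± 12.1 TPM (SD, n = 2). Both genes were higher in pup 2, and H2-D1 exceeded H2-K1 in each pup, 3.47-fold in pup 2 and 3.22-fold in pup 1. By mean TPM, H2-D1 ranked 522nd and H2-K1 1726th among protein-coding genes. Together the pair made up 83.2% of the summed heavy chain TPM in pup 2 and 79.9% in pup 1. The sum over all 24 heavy chain genes was 19197 counts or 462.65 TPM in pup 2 and 18403 counts or 363.69 TPM in pup 1. The summed counts do not depend on how reads are divided among the 24, whereas the summed TPM also depends on the gene lengths.

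The non-classical heavy chains, which have narrower roles or less varied ligands, included 22 genes, of which 7 reached 1 TPM in both pups. H2-T23, known as Qa-1 and a ligand of the NKG2A receptor of natural killer cells, stood at 35.69 TPM in pup 2 and 27.47 TPM in pup 1. H2-T22, a ligand of some gamma-delta T cells, stood at 28.51 TPM in pup 2 and 30.56 TPM in pup 1. These genes from the H2-T group held 13.9% of the heavy chain TPM in pup 2 and 16.0% in pup 1. Their order by TPM reversed between the pups, but their deposited intervals overlapped in pup 1, so the order there is not resolved. H2-M3, which presents formylated peptides, was lower, at 3.34 TPM in pup 2 and 3.67 TPM in pup 1. H2-Q4 stood at 3.28 TPM in pup 2 and 2.92 TPM in pup 1. H2-T24 stood at 2.27 TPM in pup 2 and 2.14 TPM in pup 1. For H2-M3, H2-Q4 and H2-T24 the deposited intervals of the pups overlapped. H2-Q2 stood at 1.63 TPM in pup 2 and 2.36 TPM in pup 1. H2-Q7, which encodes Qa-2, stood at 1.43 TPM in pup 2 and 1.96 TPM in pup 1. H2-Q2 and H2-Q7 rested on 42 to 83 counts each. Below the threshold lay H2-Q10, known as a secreted class I chain of the liver, at 0.98 TPM in pup 2 and 1.13 TPM in pup 1, with H2-Q6, H2-M5 and H2-Q1 between 0 and 0.50 TPM. H2-M1, H2-M2, H2-M9, H2-M10.1 to H2-M10.6, H2-M11 and H2-T3 had 0 counts in both pups; several H2-M1 and H2-M10 genes are known from sensory neurons of the vomeronasal organ, and H2-T3 from the gut. With H2-Eb2 of class II these are the 12 genes at 0. A limit of 3 counts per library was used here for a count of 0. Depending on length, it stood for 0.059 to 0.138 TPM in pup 2 and 0.048 to 0.111 TPM in pup 1. Deposited intervals reached above that limit for some of these genes. For H2-T3 the interval was 0.15 to 1.53 TPM in pup 2 and 0.13 to 1.22 TPM in pup 1, past 1 TPM.

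**Figure D1:**
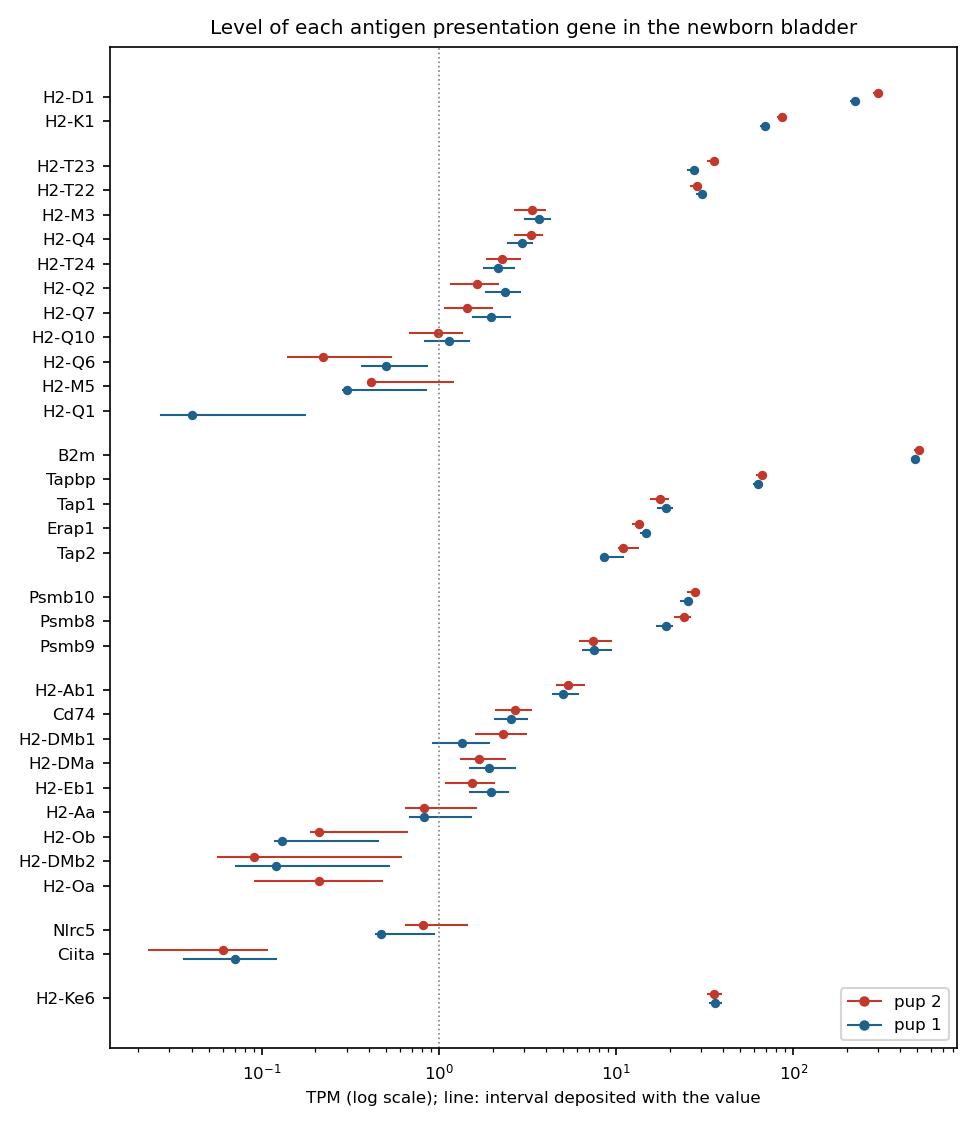
TPM (log axis) of the 33 antigen presentation genes with counts, in pup 2 (red, upper) and pup 1 (blue, lower), grouped by role; points are the deposited TPM, lines the interval deposited with each value, and the dotted line 1 TPM. H2-Q1 in pup 2 and H2-Oa in pup 1 were listed at 0 and have no point; B2m and H2-D1 lie highest, and all class II genes lie below 6 TPM.

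B2m was the most abundant of the 45 genes and ranked 262nd among protein-coding genes, at 508.54 TPM in pup 2 and 487.60 TPM in pup 1. The intervals deposited with these values, 486.6 to 506.7 TPM in pup 2 and 469.6 to 487.1 TPM in pup 1, end just below them. Set against its partners, B2m was 1.10 times the summed heavy chain TPM in pup 2 and 1.34 times in pup 1. Tapbp, which encodes the loading factor tapasin, stood at 66.05 TPM in pup 2 and 62.75 TPM in pup 1. Both B2m and Tapbp were slightly higher in pup 2 on the TPM scale. Tap1 stood at 17.67 TPM in pup 2 and 19.01 TPM in pup 1. Tap2, whose product is the partner chain in the transporter, stood at 10.89 TPM in pup 2 and 8.51 TPM in pup 1. Over all transcripts of each gene Tap1 exceeded Tap2 in both pups, 1.62-fold in pup 2 and 2.23-fold in pup 1. Retained-intron transcripts held 81.13% of Tap2 in pup 2 and 79.61% in pup 1. For Tap1 they held 26.12% in pup 2 and 30.38% in pup 1, so the ratio is not one of protein-coding transcripts. Erap1, the trimming peptidase, stood at 13.49 TPM in pup 2 and 14.78 TPM in pup 1. The other 12 genes of the loading pathway (chaperones, cytosolic peptidases, proteasome activators and others) were all at 1 TPM or more in both pups. Among them the chaperone Calr stood at 306.04 TPM in pup 2 and 371.55 TPM in pup 1, and the thiol oxidoreductase Pdia3 at 296.46 TPM in pup 2 and 345.9 TPM in pup 1. The proteasome activator subunit Psme2 stood at 194.12 TPM in pup 2 and 228.97 TPM in pup 1. The tapasin relative Tapbpl was much lower, at 7.91 TPM in pup 2 and 7.77 TPM in pup 1. None of the 12 was 1.5-fold apart between pups, and 2 of the 12 were higher in pup 2.

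The immunoproteasome subunits were all detected and all stood far below the constitutive subunits whose places they take. Psmb10 stood at 27.92 TPM in pup 2 and 25.25 TPM in pup 1, or 0.184 times Psmb7 in pup 2 and 0.155 times in pup 1. Psmb8 stood at 24.23 TPM in pup 2 and 19.17 TPM in pup 1, or 0.0917 times Psmb5 in pup 2 and 0.0803 times in pup 1. Psmb9 stood at 7.34 TPM in pup 2 and 7.51 TPM in pup 1, or 0.0143 times Psmb6 in pup 2 and 0.0163 times in pup 1. The order of the 3 ratios was the same in both pups, with Psmb9 lowest. The 14 genes of the constitutive core particle were all detected, with a median of 293 TPM. None of the 14 was 1.5-fold apart between pups, and 13 were higher in pup 2. Psmb6 alone stood at 512.53 TPM in pup 2 and 460.41 TPM in pup 1.

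**Figure D2:**
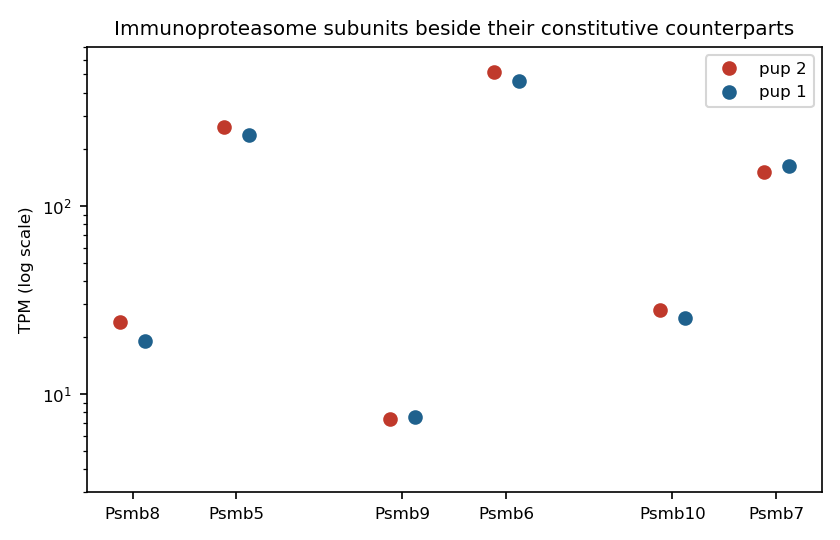
TPM (log axis) of each immunoproteasome subunit beside the constitutive subunit whose place it takes, in pup 2 (red, left) and pup 1 (blue, right). Psmb8 and Psmb10 stood at 19.17 to 27.92 TPM and Psmb9 at 7.34 to 7.51 TPM, below Psmb5, Psmb6 and Psmb7 in both pups.

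Class II genes were present at low level. H2-Ab1, a beta chain, stood at 5.34 TPM in pup 2 and 4.99 TPM in pup 1, from 142 counts in pup 2 and 166 in pup 1. Its alpha chain partner H2-Aa stood at 0.82 TPM in both pups, from 19 counts in pup 2 and 25 in pup 1. H2-Ab1 thus exceeded H2-Aa 6.51-fold in pup 2 and 6.09-fold in pup 1, although the pair forms 1 molecule. H2-Eb1, the other beta chain, stood at 1.54 TPM in pup 2 and 1.97 TPM in pup 1. The gene of its alpha chain, annotated as H2-Ea-ps and outside the protein-coding rule, had 0 counts in both pups; mice of the C57BL/6 background are known to lack the E alpha chain. Cd74, the invariant chain, stood at 2.67 TPM in pup 2 and 2.56 TPM in pup 1. The editor chain H2-DMa stood at 1.67 TPM in pup 2 and 1.92 TPM in pup 1, and its partner H2-DMb1 at 2.29 TPM in pup 2 and 1.34 TPM in pup 1. H2-DMb2, H2-Oa and H2-Ob lay between 0 and 0.21 TPM. The 4 chain genes H2-Aa, H2-Ab1, H2-Eb1 and H2-Eb2 summed to 7.70 TPM in pup 2 and 7.78 TPM in pup 1, so that the heavy chains of class I exceeded them 60.1-fold in pup 2 and 46.7-fold in pup 1. Professional antigen presenting cells are known to express Cd74 and class II chains at very high level. In whole bladder, fewer cells of a type and less RNA per cell cannot be told apart.

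H2-Ke6 carries an H2- symbol from its place in the locus but encodes a steroid dehydrogenase, Hsd17b8, with no known part in presentation. It stood at 35.49 TPM in pup 2 and 36.16 TPM in pup 1. Both regulators were low: Nlrc5 stood at 0.81 TPM in pup 2 and 0.47 TPM in pup 1, and Ciita at 0.06 TPM in pup 2 and 0.07 TPM in pup 1, from 7 counts in pup 2 and 11 in pup 1. The 8 genes of the promoter complex that recruits them (the RFX, NF-Y and CREB/ATF subunits) were all detected, led by Nfyc at 42.35 TPM in pup 2 and 45.87 TPM in pup 1. Rfx5 was the lowest of the 8, at 2.21 TPM in pup 2 and 2.19 TPM in pup 1. Of 14 genes on the interferon input to these promoters 12 were detected, including the receptor chain Ifngr1 at 47.27 TPM in pup 2 and 47.96 TPM in pup 1. The interferon genes themselves were at or near 0, with 1 count in pup 2 and 0 counts in pup 1 for Ifng and 0 counts in both for Ifnb1.

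Ordered by mean TPM, the genes from B2m through H2-D1, H2-K1 and Tapbp to H2-Ke6 stood apart from their next neighbour in both pups by the deposited intervals. From H2-M3 downwards, each of the neighbours H2-M3, H2-Q4, Cd74, H2-T24, H2-Q2, H2-DMb1, H2-DMa, H2-Eb1 and H2-Q7 overlapped the next in both pups, so their order is not resolved. H2-Ab1 stood above H2-M3 in both pups. Between these ranges Tap1 stood above Erap1 in both pups. The remaining 8 neighbouring pairs, from H2-Ke6 and H2-T23 to Psmb9 and H2-Ab1, were apart in that order in 1 pup and not in the other.

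Along chromosome 17 (mm10) the 39 genes span 3568 kb from Tapbp at chr17:33915899-33929292 to H2-M2 at chr17:37480851-37483552. H2-K1 (chr17:33996017-34000347) and H2-D1 (chr17:35262730-35267499) start 1262 kb apart, with the class II block between them. That block, with Psmb8, Psmb9, Tap1 and Tap2 inside it, holds 13 of the genes in 249 kb, of which 8 were detected, with Psmb8 highest. The H2-Q group spans 154 kb beside H2-D1 with 6 genes, of which 3 were detected, none above a mean of 3.1 TPM. In the H2-T group 3 of 4 genes were detected. Of the 12 H2-M genes, spread over 1199 kb, H2-M3 was detected, H2-M5 had counts below 1 TPM and 10 had 0 counts in both pups.

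**Figure D3:**
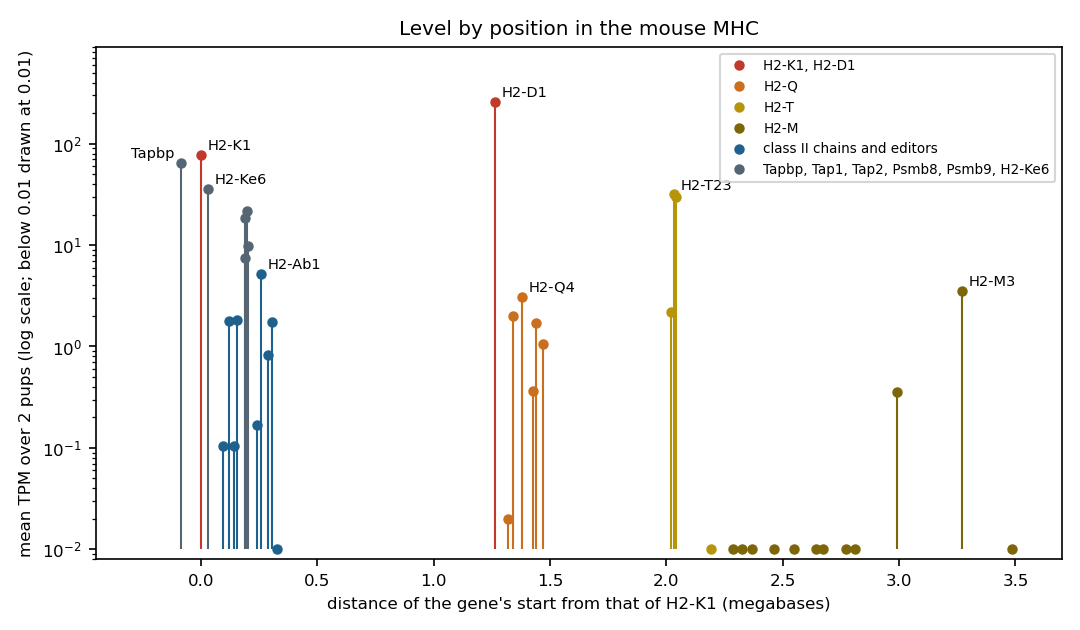
Mean TPM over 2 pups (log axis, values below 0.01 drawn at 0.01) of the 39 genes on chromosome 17, by the distance of each start from that of H2-K1 in megabases; colours mark the gene group. H2-K1 and H2-D1 stand above their neighbours, and 10 of 12 H2-M genes lie on the floor.

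Between the littermates the antigen presentation genes differed modestly, and mostly towards pup 2. Ratios were taken from expected counts scaled by TMM over all mouse genes, as log2 of pup 2 over pup 1, for the 17 genes that average 100 counts or more. None of the 17 was 1.5-fold higher in pup 2, against 3.25% of all 12733 genes of that depth, and none was 1.5-fold lower, against 1.66%. None was 2-fold higher or lower, against 1.7% and 0.283% of all genes. The counting interval lay above equality for 8 of the 17 (47.1%), against 22.3% of all genes, and below equality for none, against 30% of all genes. The median log2 ratio was 0.16 over the 17 and -0.02 over all genes, and 13 of the 17 (76.5%) were above 0, against 45.2% of all genes. A like median was found outside the set: of the 14 constitutive proteasome core genes 13 were above 0, with a median of 0.15. Of the 12 other loading pathway genes 2 were above 0, with a median of -0.08.

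H2-D1 differed most among the 17, with 13324 counts in pup 2 and 12009 in pup 1 before scaling to depth. Its log2 ratio was 0.55, with a 95% counting interval of 0.52 to 0.59, or 1.47-fold. H2-T23 followed at 0.45 (0.34 to 0.57). Tap2 was at 0.43 (0.27 to 0.58) and H2-K1 at 0.41 (0.33 to 0.48). Psmb8, Psmb10, Tapbp and B2m were the other 4 genes with an interval above equality, at 0.29, 0.23, 0.16 and 0.14. H2-T22, Tap1, Psmb9 and Erap1 lay within 0.06 of 0 with intervals that include it, so the heavy chain neighbours H2-T23 and H2-T22 and the transporter partners Tap2 and Tap1 were not apart by the same amount. H2-M3, H2-Q4, H2-T24, H2-Ab1 and H2-Ke6 had intervals that include 0. Summed, H2-D1 and H2-K1 gave 0.53 (0.49 to 0.56), the non-classical heavy chains 0.16 (0.08 to 0.23), the immunoproteasome 0.22 (0.12 to 0.32) and the class II chains 0.06 (-0.21 to 0.33). Of the 11 genes with a mean count of 20 to 100, 6 were higher in pup 2 and 5 lower. Only the interval of H2-DMb1 excluded equality, at 0.81 (0.21 to 1.42). The share of all genes at this depth is not given, so these numbers have no background here. All intervals of these ratios cover counting error of 2 libraries and not the spread between animals.

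**Figure D4:**
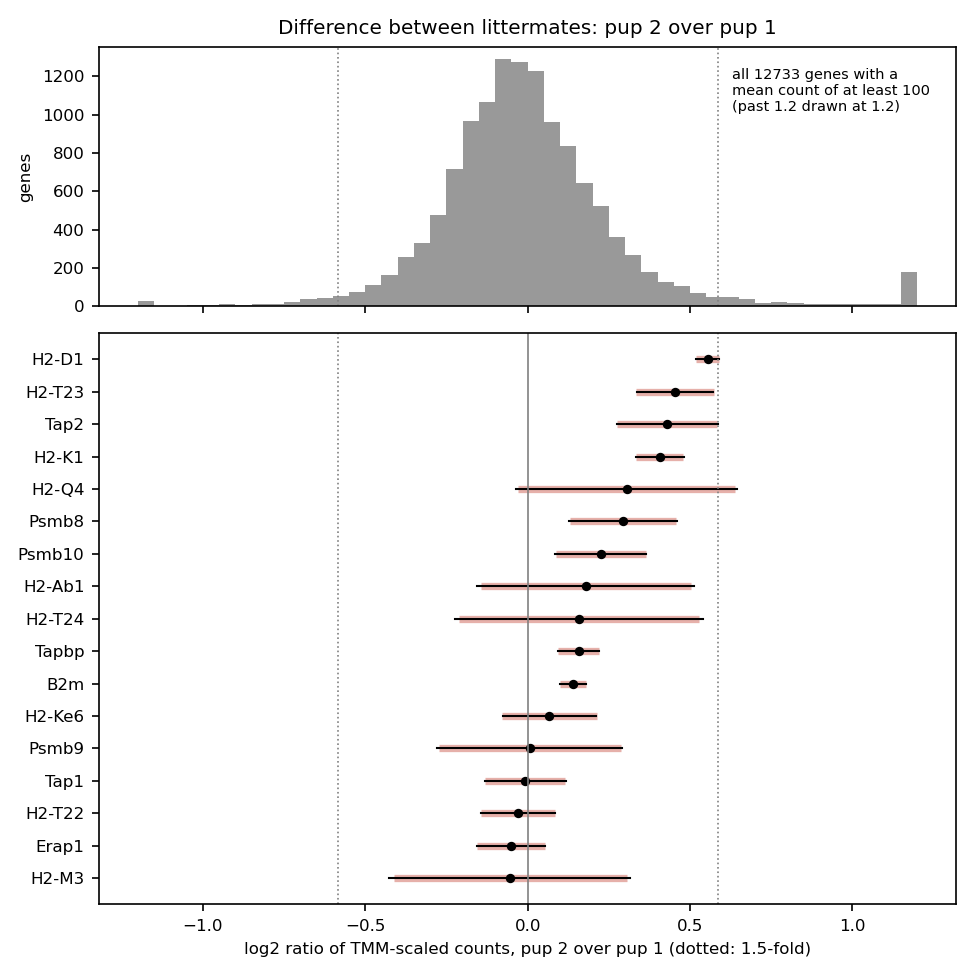
Upper panel, histogram of the log2 ratio of scaled counts, pup 2 over pup 1, over all 12733 genes that average 100 counts or more; lower panel, the 17 antigen presentation genes of that depth, with the 95% counting interval (black) and a normal-approximation interval that also takes in the deposited posterior SD (pink). Dotted lines mark 1.5-fold; H2-D1 lies closest to that line and no point passes it.

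Markers of other cells differed between the pups beside these ratios. Of 12 macrophage markers, 10 were higher in pup 2 and 9 of them past 1.5-fold, with a summed 1978 TPM in pup 2 and 635 TPM in pup 1. Lyz2 was the highest, at 1105.82 TPM in pup 2 and 216.47 TPM in pup 1, while Mrc1 stood at 13.13 TPM in pup 2 and 16.9 TPM in pup 1. Neutrophil markers summed to 380 TPM in pup 2 and 37.0 TPM in pup 1, with 4 of 7 detected and Ly6g at 0 counts in both. Most of that sum was S100a8, at 263.28 TPM in pup 2 and 24.63 TPM in pup 1. Mpo, also detected, went the other way, at 1.02 TPM in pup 2 and 1.54 TPM in pup 1. All 5 erythroid markers were past 1.5-fold higher in pup 2, with a sum of 59101 TPM in pup 2 and 21719 TPM in pup 1. The part of these cells in the ratios of the antigen presentation genes was not tested. No B cell marker (0 of 6) and no T or NK cell marker (0 of 8) reached 1 TPM in both pups, with Pax5, Cd3g, Cd8a and Ncr1 at 0 counts in both. Of 10 dendritic cell markers 3 were detected, with Cd209a at 0 counts in both pups and Clec9a at 1 count in pup 2 and 2 in pup 1. Of the 3, Cd83 was past 1.5-fold higher in pup 2, at 2.45 TPM in pup 2 and 1.47 TPM in pup 1, while Fscn1 stood at 70.87 TPM in pup 2 and 92.05 TPM in pup 1 and Zbtb46 at 2.65 TPM in pup 2 and 3.24 TPM in pup 1. No marker of endothelium, urothelium, smooth muscle or fibroblasts (6 each) was past 1.5-fold. Of 8 further interferon-responsive genes, Isg15, Rsad2 and Irf7 were past 1.5-fold higher in pup 2; Isg15 stood at 9.93 TPM in pup 2 and 4.98 TPM in pup 1. The list did not move one way: Ifit1, Ifit3 and Gbp2 had counting intervals below equality, with log2 ratios of -0.57 (-0.91 to -0.23), -0.53 (-0.89 to -0.18) and -0.36 (-0.49 to -0.23), none of them past 1.5-fold.

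Several genes that act beside class I and class II passed 1.5-fold between the pups. Of 8 genes of class II processing 7 were detected and 2 were past 1.5-fold higher in pup 2. These were the endosomal protease Ctss, at 116.58 TPM in pup 2 and 33.35 TPM in pup 1, and the thiol reductase Ifi30, at 44.56 TPM in pup 2 and 30.3 TPM in pup 1. The ligase March1, which takes class II from the surface, had 86 counts in pup 2 and 23 in pup 1. Of the interferon input genes Irf8, a factor of myeloid cells, was past 1.5-fold higher, at 22.69 TPM in pup 2 and 9.56 TPM in pup 1. Of 12 class I-like genes outside the locus 9 were detected and 2 were past 1.5-fold higher in pup 2. These were Cd1d1, which presents lipids, at 9.27 TPM in pup 2 and 5.8 TPM in pup 1, and Hfe, which takes part in iron sensing, at 11.23 TPM in pup 2 and 7.56 TPM in pup 1. Fcgrt, the neonatal Fc receptor and a partner of B2m, led that list at 118.11 TPM in pup 2 and 101.69 TPM in pup 1. Of 6 co-stimulatory genes 3 were detected, and Cd86 stood at 3.27 TPM in pup 2 and 1.37 TPM in pup 1. Of 11 receptors of class I and coreceptors 1 was detected, Pirb, at 4.27 TPM in pup 2 and 1.77 TPM in pup 1, and 5 had 0 counts in both.

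Heavy chains are close copies of each other, and reads from identical stretches have to be divided by the estimator. Longest coding sequences of 11 heavy chain genes from GENCODE M21 were compared in all 55 pairs, and identity ran from 67.0% to 95.4%. The longest runs of identical bases for 3 pairs are shown because they decide whether a read of 100 bases can tell the genes apart. All lie in coding sequence of chromosome 17, and positions are counted from 1 at the first coding base. The run of H2-D1 and H2-K1 (coding identity 91.46%) has 91 bases at 747 to 837 of H2-D1, that of H2-D1 and H2-T23 (81.12%) has 145 bases at 663 to 807 of H2-D1, and that of H2-Q6 and H2-Q7 (95.4%) has 265 bases at 605 to 869 of both.
H2-D1 and H2-K1: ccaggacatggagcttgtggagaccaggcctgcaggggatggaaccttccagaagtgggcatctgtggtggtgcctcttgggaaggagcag
H2-D1 and H2-T23: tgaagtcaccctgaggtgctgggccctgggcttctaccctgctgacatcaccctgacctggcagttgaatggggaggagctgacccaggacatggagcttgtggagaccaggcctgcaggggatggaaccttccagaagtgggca
H2-Q6 and H2-Q7: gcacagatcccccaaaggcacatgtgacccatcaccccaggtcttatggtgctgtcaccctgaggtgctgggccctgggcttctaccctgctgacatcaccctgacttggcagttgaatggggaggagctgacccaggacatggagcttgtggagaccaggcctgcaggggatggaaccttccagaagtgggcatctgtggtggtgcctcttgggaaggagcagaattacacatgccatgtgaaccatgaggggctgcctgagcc

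The classical pair thus shares no run as long as 100 bases in its coding sequence, while H2-D1 and H2-T23, which are less alike as a whole, do. Counted over annotated transcripts, 3.59% of the 100-base windows of H2-D1 and 1.16% of those of H2-K1 were found in another gene. Of the 45 genes, 26 shared no window with another gene, B2m, Erap1, Psmb10, H2-Ab1 and Cd74 among them, and 19 shared at least 1. Only H2-Ke6 and H2-T22 shared at least 20%: H2-Ke6 shared 63.83% with the read-through gene Gm20427 on its own strand, and H2-T22 31.46%, mostly with A930015D03Rik on the opposite strand. H2-Q6 shared 13.04% of its windows and H2-Q7 11.98%.

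The posterior SD that the authors deposited with each count was small. As a percent of the count, averaged over the pups, it was at most 1.07% among these genes at a mean count of at least 100, in H2-Q4, and at most 0.64% at a mean count of at least 1000, in H2-T23. For H2-D1 it was 8.80 counts of 13324 in pup 2 and 8.98 of 12009 in pup 1. At mean counts of 20 to 100 the highest average was 5.82%, in H2-Q6, the gene with the long run shown above, from 7.33% in pup 2 and 4.32% in pup 1. No antigen presentation gene that averages 20 counts or more reached 20% of its count, against 6.75% of all genes with a mean count of 20 to 100 and 0.64% of those with 100 to 1000. These depths held 11 and 9 of the genes, so 0 is near those shares. The median was 0.109% over the 9 genes, against 0% over all genes of that depth. At 1000 counts or more it was 0.059% over 8 genes, against 0%. Below a mean count of 20, H2-DMb2 had a posterior SD of 1.05 counts of 3 in pup 2 and 0.84 counts of 5 in pup 1. H2-DMb1 carried the identical posterior SD in each pup, and the pair shares 179 windows. Tap1 and Psmb9 also carried identical posterior SDs, 1.8 counts in pup 2 and 1.62 in pup 1, although they lie on opposite strands with 212 exonic bases in common. Identical posterior SDs are what an exchange of reads within a pair gives. Exons of 14 of the genes overlap another gene, and since the use of strand is not given, counts of those with an antisense partner may hold its reads. Among them, Tapbp (Gm19412), Tap2 (Gm15821 and Gm20496), Psmb8 (Gm20496), H2-T22 (A930015D03Rik), H2-Q4 (Gm11131) and H2-Oa (BC051537) also share 100-base windows with that partner. Erap1 (Cast), H2-DMa (Brd2), Ciita (Dexi) and Nlrc5 (9330175E14Rik) overlap antisense exons but share no window. Whether their counts hold antisense reads was not tested.

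**Figure D5:**
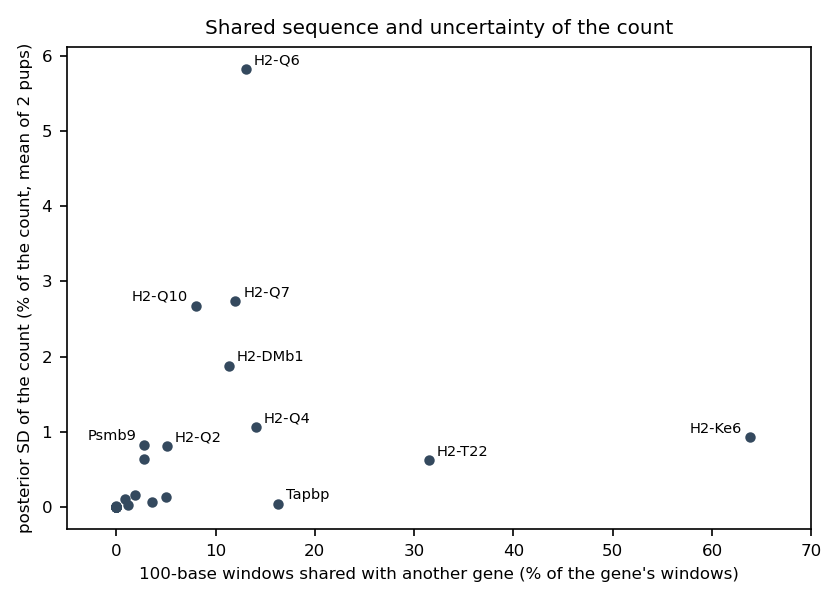
Posterior SD of the count as a percent of the count (mean of 2 pups) against the percent of a gene's 100-base windows found in another gene, for the 28 antigen presentation genes that average 20 counts or more. H2-Q6 has the highest posterior SD at 13.04% of windows shared, and H2-Ke6, at 63.83%, stays below 1%.

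At the transcript level, 16 of the 17 genes that average 100 counts or more had the same leading transcript in both pups, and 4 had 1 transcript in the files. The exception was Tap1, where Tap1-201 held 36.55% in pup 2 and 33.57% in pup 1 and Tap1-206 held 35.63% in pup 2 and 36.05% in pup 1. In pup 2 the posterior SD was 58.09 of 388.58 counts for Tap1-201 and 56.68 of 429.79 for Tap1-206, so their order is not resolved. The retained-intron transcript Tap1-203 held 23.66% in pup 2 and 27.17% in pup 1. H2-D1 was mostly H2-D1-202, at 91.68% in pup 2 and 88.42% in pup 1. H2-K1 was mostly H2-K1-201, at 75.91% in pup 2 and 72.79% in pup 1. Most of Tap2 was assigned to Tap2-202, a retained-intron transcript, with 81.13% in pup 2 and 79.61% in pup 1, so the protein-coding Tap2-201 held 18.87% in pup 2 and 20.39% in pup 1. A retained-intron transcript, Tapbp-204, held 17.76% of Tapbp in pup 2 and 17.98% in pup 1. In Psmb8 the short Psmb8-203 held 65.52% in pup 2 and 54.56% in pup 1. In H2-T22 the leading H2-T22-202 held 59.13% in pup 2 and 46.97% in pup 1. These shares are the authors' estimates per transcript, and no count of reads specific to 1 transcript was used here.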

How the data were processed

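Each of the 2 pups gave 1 library of total bladder RNA. The labels' protocols name mirVana for extraction, link a low-input SMARTer manual and give 10 ng of RNA above 200 nt with spike-ins. The authors deposited gene and transcript files in RSEM layout on mm10 with GENCODE M4, per the text listing of each sample. Neither the aligner nor the estimator's version nor the use of strand is given in the sources used here. Expected counts as deposited are unnormalised estimates in which the authors' estimator divided shared reads among genes, and the posterior SD of each count comes with them. The deposited TPM are scaled over every entry of a file, and the deposited percent of a gene per transcript is the estimator's own.

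Of 43346 mouse genes, 42462 were matched by identifier to GENCODE M21 on the same assembly. Expected counts were rounded and scaled with TMM (edgeR 4.0.16 in R 4.3.3), and a count of 0 was set to 3 in ratios. Exact binomial (Clopper-Pearson) intervals at 95% compare 2 libraries; intervals and limits at 0 cover counting error only, since PCR copies are not told apart. With 1 library per animal and no residual degrees of freedom no test was run. A gene was called detected at 1 TPM in both pups. Ratios used a mean count of at least 100. On data simulated for pup 2 over pup 1 over 12721 genes, 42 of 50 genes set at 1.8-fold and 111 of 12527 unchanged genes passed 1.5-fold. The simulation set a CV of 10% beyond counting error in each pup, so these rates hold for that spread alone. Windows of 100 bases were taken from M21 transcripts that are also in the deposited files (101510 of 141767), because effective lengths lay 99 nt below the length. Coding identity (Biopython 1.88) was used in place of the protein identity first planned. Python 3.11.15, pandas 2.3.3, numpy 2.4.6 and scipy 1.17.1 were used.

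Alternatives were DESeq2 1.42.0 size factors, total counts, TMM without globins, ratios of TPM, other count minimums and thresholds, the posterior mean values and each pup alone. Genes were named with values where they reached 1 TPM in both pups or a mean count of 100, or where the posterior SD was at least 20% of a count of 20 or more; of other lists up to 4 genes by mean TPM and those past 1.5-fold. A gene at 0 in a list, or singled out beside these, was chosen after its values were seen. The members and lists were chosen with earlier results of these data known. Older symbols stand for 2 genes of the class II list, and Lilrb4a was not found under its symbol. 1 gene of the interferon list is not reported here.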

Additional observations from a re-analysis of the deposited data

Results flagged for a closer look

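Of 11 genes with an H2- symbol that are not protein-coding in GENCODE M21, and so lie outside the rule, 4 had more than 3 counts in both pups, the limit used here for a count of 0, and 5 had 0 counts in both. The mean expected count over the pups was 10.69 for H2-K2, annotated as a transcribed pseudogene, and 13.59 for H2-T-ps, an unprocessed pseudogene. It was 12.05 for H2-T10 and 6.29 for H2-Q5, both annotated as polymorphic pseudogenes. H2-T10 had 6.52 counts with a posterior SD of 1.05 in pup 2 and 17.58 counts with a posterior SD of 1.59 in pup 1, and 261 of the 100-base windows of H2-T22 are also found in it. H2-K2 shares 10 windows with H2-D1. The highest of these means is 13.59 counts, beside a mean of 12666 for H2-D1.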

How the results depend on the processing

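Under DESeq2 size factors, total counts, TMM without globins, ratios of TPM, posterior mean counts and 1 added TPM, the median log2 ratio of pup 2 over pup 1 over the 17 genes stayed above 0, between 0.073 and 0.178, and under DESeq2 size factors, total counts and ratios of TPM no gene of the 17 passed 1.5-fold. By ratio of TPM, which shifts all genes by a median of -0.08, H2-D1 was at 0.43, H2-K1 at 0.32, Tapbp at 0.07 and B2m at 0.06. With a minimum mean count of 20 the number past 1.5-fold was 1 higher (H2-DMb1) and 1 lower (H2-Q6) in pup 2. With no minimum it was 3 higher (H2-DMb1 with H2-Ob and H2-Oa) and 1 lower. H2-Ob rested on 13 counts in pup 2 and 10 in pup 1. H2-Oa rested on 5 counts in pup 2 and 0 in pup 1, with the 0 set to 3. The share of all genes is not given at these minimums, so these numbers have no background here. At 0.5 TPM 25 genes were detected and at 2 TPM 18, against 23 at 1 TPM. Over the 28 antigen presentation genes that average 20 counts or more, the median posterior SD was 0.0593% of the count from the gene values. It was 4.70% when transcript SDs were summed per gene by root sum of squares. That sum counts reads exchanged between transcripts of 1 gene as uncertain. Taking 1 pup at a time, 23 to 24 genes were detected, the median level of the detected genes was 8.51 to 10.89 TPM, and the summed heavy chain count was 18403 to 19197. The ratio between pups has no value without either pup. No paired analysis was possible because the 2 replicates form 1 group. Depth limits the class II and H2-Q genes, most of which rest on under 100 counts.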
